A study of Sus scrofa with 6 samples.

Results

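The cytokines, chemokines and their receptors of the pig kidney were taken as all array probes whose gene name in the scanner files begins with IL and a digit, CCL, CXCL, CCR, CXCR, CSF, TNFSF or TNFRSF, or is TNF. This gave 77 names of the 36108 distinct names in the files, or 111 of 43603 probes: 45 ligands, 31 receptors and IL1RN, the natural antagonist of interleukin 1. The RNA came from renal cortex of Large White pigs aged 3 months, with 1 kidney of a different pig on each of 6 arrays. The 3 control kidneys were frozen straight after removal. The 3 ischemia kidneys were kept under clamp at 37 °C for 60 min, rinsed cold with a preservation fluid for organs (University of Wisconsin solution) and held at 4 °C for 24 h. These steps cannot be told apart here, and neither group's organs were perfused with blood again before sampling, as far as the labels say. The question is which signals of the cytokine system differ in cortex RNA after this sequence.

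Cytokines are small secreted proteins that carry signals between cells. Interleukins act mostly through receptors that use JAK kinases and STAT factors or, in the interleukin 1 family, the adaptor MYD88. Chemokines attract leukocytes through G protein-coupled receptors, and the tumour necrosis factor (TNF) superfamily controls inflammation, survival and cell death, largely through NF-kappaB. In the kidney, tubular cells, endothelium and resident macrophages can all make cytokines, and chemokines such as CCL2 and CXCL10 are known for drawing monocytes and T cells into injured tissue.

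Between 52.6% and 61.4% of the spots on an array were well above background, by the scanner program's own test, and 0 were saturated. Each of the 3 slides carried 1 control array at position 4 and 1 ischemia array at position 3, which leaves the effects of position and group impossible to tell apart. Slide 1 held control 1 with ischemia 2, slide 2 control 2 with ischemia 3, and slide 3 control 3 with ischemia 1. Signals are log2 values relative to the 75th percentile of their own array, and a difference is ischemia minus control. Signals of different probes are not comparable as amounts of RNA. Markers of the proximal tubule, 5 of 5 tested, had high signals in both groups, and all 5 differed downward, by -1.03 to -0.64 (summed linear level 371 to 539 in the controls and 247 to 296 in the ischemia kidneys, with 0 past the adjusted threshold).

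A total of 67 member probes of 47 genes met the criterion for testing, a signal well above background on 3 or more of the 6 arrays: 28 of 45 ligands, 18 of 31 receptors and IL1RN. Of the 77 names, 41 had a probe above background on all 6 arrays, 7 on 1 or 2 arrays, and 23 on 0. The chemokine side was the more widely measured. All 11 CC chemokines, 4 of 6 CXC chemokines and 9 of 11 chemokine receptors were tested, against 8 of 22 interleukins and 6 of 14 interleukin receptors. All 4 TNF superfamily ligands, 3 of 6 TNF receptors and 1 of 2 colony stimulating factors were tested. The 23 names on 0 arrays held the interleukins IL2, IL4, IL9, IL12A, IL12B, IL13, IL17A, IL21, IL22, IL23A and IL27 and the receptors IL2RA, IL2RG, IL7R, IL12RB1, IL12RB2 and IL23RA. IL6, an inducer of the acute phase response, belonged to them with 3 probes. These counts are by the names in the files: probes outside the name rule that are described as IL7R, IL9 and IL27 were above background on 6, 1 and 1 arrays, and the IL7R one, matched to a horse sequence, differed by -0.09 ± 0.23. The others on 0 arrays were CCR3, CCR9, IL1RAPL1, TNFRSF8 and TNFRSF11B. IL1A, IL8, IL25, IL5RA, CSF2 and TNFRSF4 were above background on 1 array and CXCL11 on 2. The probe named IL8, for the neutrophil chemokine also called CXCL8, stood above background only in ischemia 3, and a second interleukin 8 probe outside the name rule in 1 ischemia kidney.

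**Figure D1:**
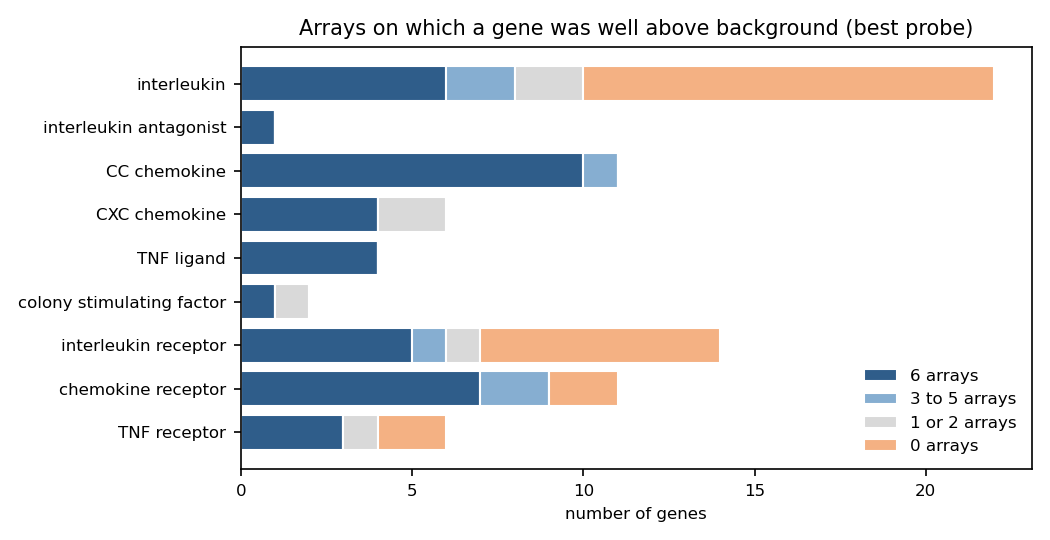
Number of gene names per family, split by the number of the 6 arrays on which the best probe of the gene was well above background. All 11 CC chemokines reached at least 3 arrays, while 12 of 22 interleukins reached 0.

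The measured items are probes of 60 bases, and a 30-base stretch of those that the results turn on is given as the scanner files list it, 5′ to 3′. The first set holds the member genes of smallest limma p, with the bases 31 to 60 of each probe. CXCL10, CCL2 and TNFRSF12A are shown with both of their probes because the agreement of a pair is one of the results.
IL1B, A_72_P441479: gcctgaaaacataataagctcaaattattt
CXCL10, A_72_P165266: tgttctctcctagaaacattaagaaagact
CXCL10, A_72_P509208: tcttagaatctcaaataaccaagaggtatt
CCL21, A_72_P165806: aaggctgtaagaggactgagacccccaaaa
CCL2, A_72_P035346: tttctgttttaaattctaagccattgttaa
CCL2, A_72_P675364: aacttgccctaaataccctcagatattatt
TNFRSF12A, A_72_P063236: tctcagccctgggggtttagggacctgttc
TNFRSF12A, A_72_P440626: ttattaataaaagaatctttaactttaaaa
CCRL2, A_72_P146431: cttgctttttacaaaccccagatggaaaac
The paired probes of CXCL10, CCL2 and TNFRSF12A share no stretch shown here, so each is a separate reading of its gene from the same RNA.

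No member gene passed the test. With limma and Benjamini-Hochberg adjustment over all 25013 probes tested, 0 of 47 member genes had an adjusted p under 0.05, against 1 of all probes (0.004%). The smallest adjusted p among members was 0.545 with limma, and 0.318 with slide as a block. With that block 6 genes had an unadjusted p under 0.05, against 9.26% of all probes. At an unadjusted limma p under 0.05 there were 5 of 47 genes (10.6%), against 6.3% of all probes. Of these, 4 lay higher in the ischemia kidneys (all probes: 2.99%) and 1 lower (3.31%). In 3 genes (6.38%) every ischemia value lay above every control value, against 5.89% of all probes, and in 1 gene (2.13%) every one lay below, against 5.02%. IL1B is among the genes higher at an unadjusted p and among the 3 without overlap, and it met the criterion through the ischemia arrays alone. Over the 46 genes above background in at least 1 kidney of each group, an unadjusted limma p under 0.05 was reached by 3 genes upward and 1 downward (8.70%, against 6.16% of all such probes). Of these 46 genes, 2 lay wholly above the controls (4.35%, against 5.80%) and 1 wholly below (2.17%, against 4.98%). The values below are therefore a description of which members differed most, and the count of genes without overlap is close to that of the whole array. With 3 arrays a group, an exact permutation test cannot give a p under 0.1. In whole tissue, fewer cells of a type and less RNA per cell cannot be told apart.

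The bulk of the members differed little. Of the 47 genes, 36 had a difference within 0.5 on the log2 scale, and the median difference was 0.04, against -0.04 for all probes tested. For the 28 ligands the median was -0.05, with 13 above 0 and 15 below, and within slides 1, 2 and 3 it was -0.07, 0.02 and -0.12. The 18 receptors had a median of 0.14, with 12 above 0 (66.7%) and 6 below, whereas 44.2% of all probes lay above 0. With normexp background correction 10 lay above 0 and 8 below, against 9746 of all 25013 probes above 0. With quantile normalization it was 13 and 5, against 12672 of 25013, and with median centring 15 and 3, against 15960. In the authors' deposited values it was 15 and 2, against 14009 of 19241. Within slides the receptor median was 0.45, 0.22 and -0.14, so slide 3 went the other way. With each array centred on its median, or in the authors' deposited values, the median of all probes was 0.11 and 0.14, and the ligand median moved with it to 0.10 and 0.12. Small differences of either sign thus depend on the scaling.

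**Figure D2:**
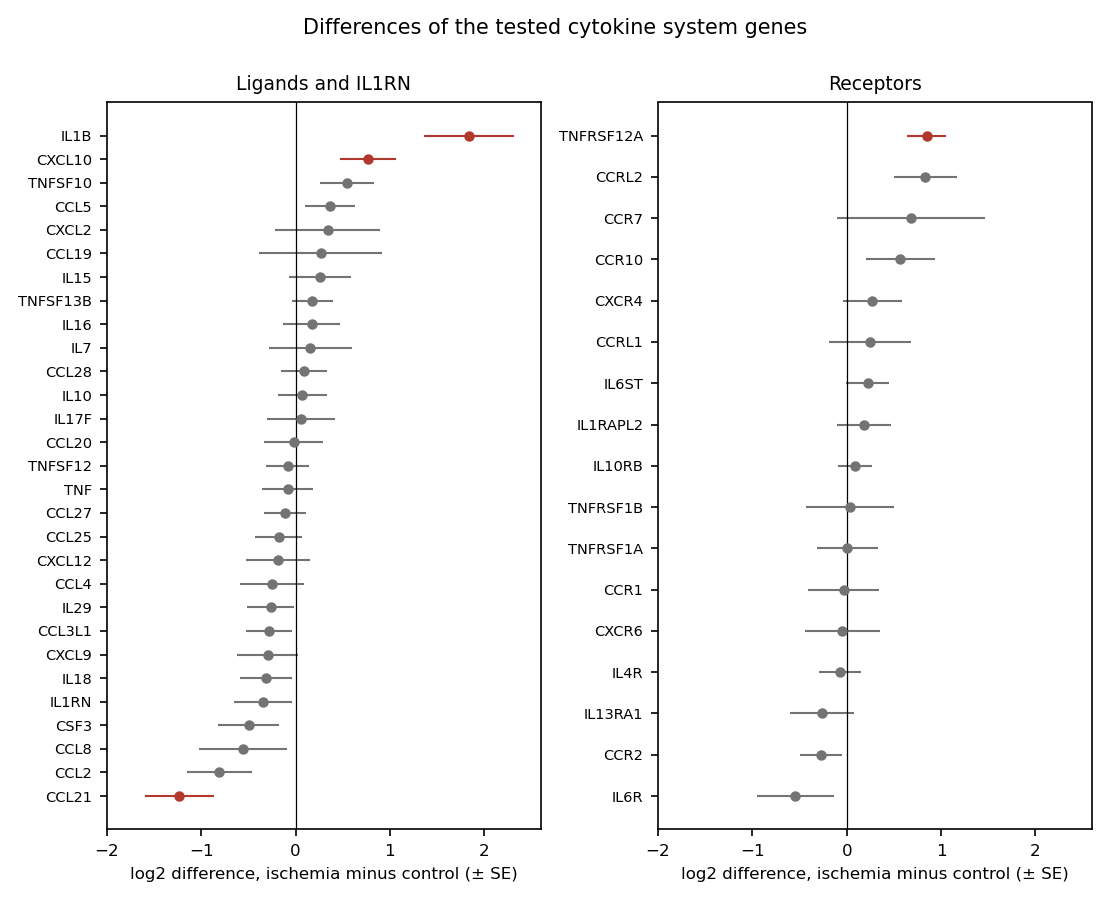
Log2 difference (ischemia minus control, with its limma standard error) of the tested genes described here, each by its brightest probe, with ligands and IL1RN on the left and receptors on the right. Red marks the 4 genes whose 3 ischemia values and 3 control values did not overlap: IL1B, CXCL10 and TNFRSF12A above 0 and CCL21 below.

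Among the interleukins, IL1B separated the groups. It encodes interleukin 1 beta, the fever-inducing product of activated monocytes and macrophages that caspase 1 releases from its precursor. Its log2 signal was -5.61, -4.84 and -4.18 in controls 1 to 3 and -3.53, -3.41 and -2.17 in ischemia kidneys 1 to 3. All ischemia values lay above all control values, with ischemia 3 the highest. The probe stood well above background on 3 ischemia arrays and 0 control arrays, so the control level is not resolved. Each control was therefore set at its own signal or the lowest signal above background on its array, whichever was higher. Against that floor the ischemia signal was 2.09-fold higher, a fold that depends on the background correction and is no strict bound. The limma adjusted p was 0.592, and IL1B met the criterion for testing only through the group where it was high. Its plain log2 difference of 1.84 is not a measure of size for that reason, and it was 0.37 with normexp background correction. IL1A, its neighbour in the RefSeq gene order and the other interleukin 1 agonist, was above background in 1 ischemia kidney alone.

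The pig carries a second interleukin 1 beta gene, and 3 probes named IL-1beta in the files match it (IL1B2 in RefSeq). They fall outside the name rule. A_72_P463511 was above background on all 6 arrays with a difference of -0.16 ± 0.21, and the other 2 on 0 arrays. Only the probe of IL1B thus separated the groups.

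IL1RN, which blocks the interleukin 1 receptor, gave different readings from its 2 probes, and both are shown for that reason, again as bases 31 to 60.
IL1RN, A_72_P441444: tgttgagcctcattttgtgttcctggggat
IL1RN, A_72_P776040: gccctaatctgcaaaaatgaaaagttggag
The brighter one, A_72_P441444, read -3.39, -2.79 and -2.58 in the controls and -2.94, -3.11 and -3.73 in the ischemia kidneys, a difference of -0.34 ± 0.31. The dimmer one, A_72_P776040, read -3.58, -4.54 and -3.71 in the controls and -2.29, -1.65 and -5.12 in the ischemia kidneys, a difference of 0.92 ± 0.84. On the dimmer probe ischemia 1 and 2 lay above every control, and ischemia 3 below every control. The dimmer probe was above background on 2 control and 2 ischemia arrays, so its lowest values are not resolved. It starts at base 1187 of its transcript in the files, and the brighter one at base 223.

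The remaining interleukins lay close together in the groups. IL18, an interleukin of the same family that epithelial cells store as a precursor, differed by -0.31 ± 0.28 and -0.32 ± 0.31 on its 2 probes. IL15, which sustains T and natural killer cells, differed by 0.26 ± 0.32 and 0.17 ± 0.22. IL7, a lymphocyte survival factor, differed by 0.16 ± 0.44, with ischemia 1 and 2 at -0.43 and -0.82 above all controls (-1.19, -1.39 and -1.35) and ischemia 3 at -2.21 below them. IL16, a T-cell attractant, differed by 0.17 ± 0.30. The anti-inflammatory IL10 differed by 0.07 ± 0.26, and IL17F by 0.06 ± 0.36. IL29, an interferon of the lambda type, differed by -0.26 ± 0.25. In all of these the groups overlapped.

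CXCL10 was the clearest of the CXC chemokines. It is an interferon-induced attractant of T cells that carry CXCR3. Its brighter probe read 1.32, 0.45 and 1.13 in the controls and 1.43, 1.72 and 2.06 in the ischemia kidneys. The groups did not overlap, although control 1 and ischemia 1 were close to each other. The log2 difference was 0.77 ± 0.29 (SE; 95% interval 0.08 to 1.46; 1.70-fold; limma adjusted p = 0.751). Its other probe read 0.67, -0.41 and -0.12 in the controls and 0.70, 0.94 and 1.12 in the ischemia kidneys, a difference of 0.87 ± 0.31. Both probes were above background on all 6 arrays. Within slides 1, 2 and 3 the brighter probe differed by 0.40, 1.61 and 0.29, so slide 2 held most of the difference. Without control 2 the difference was 0.51 (limma unadjusted p = 0.129). Leaving out ischemia 2 or ischemia 3 also brought the unadjusted p of this probe above 0.05. With the sample number of the labels as a block it was 0.0528 (limma).

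CXCL9 and CXCL11, which share the receptor CXCR3 and lie beside CXCL10 in the RefSeq gene order, did not show the same values. CXCL9 differed by -0.30 ± 0.32 and CXCL11 was above background on 2 arrays, 1 in each group. A CXCR3 probe, found by its description and outside the name rule, differed by -0.32 ± 0.25. CXCL2, a neutrophil attractant, read -0.71, -0.75 and -0.38 in the controls and -1.02, -0.92 and 1.13 in the ischemia kidneys. Ischemia 3 was thus above all controls and the other ischemia kidneys below them, and the second, overlapping CXCL2 probe also had its highest value in ischemia 3. CXCL12, which retains CXCR4-bearing cells in tissue, differed by -0.19 ± 0.34 and -0.43 ± 0.32 on its 2 probes.

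**Figure D3:**
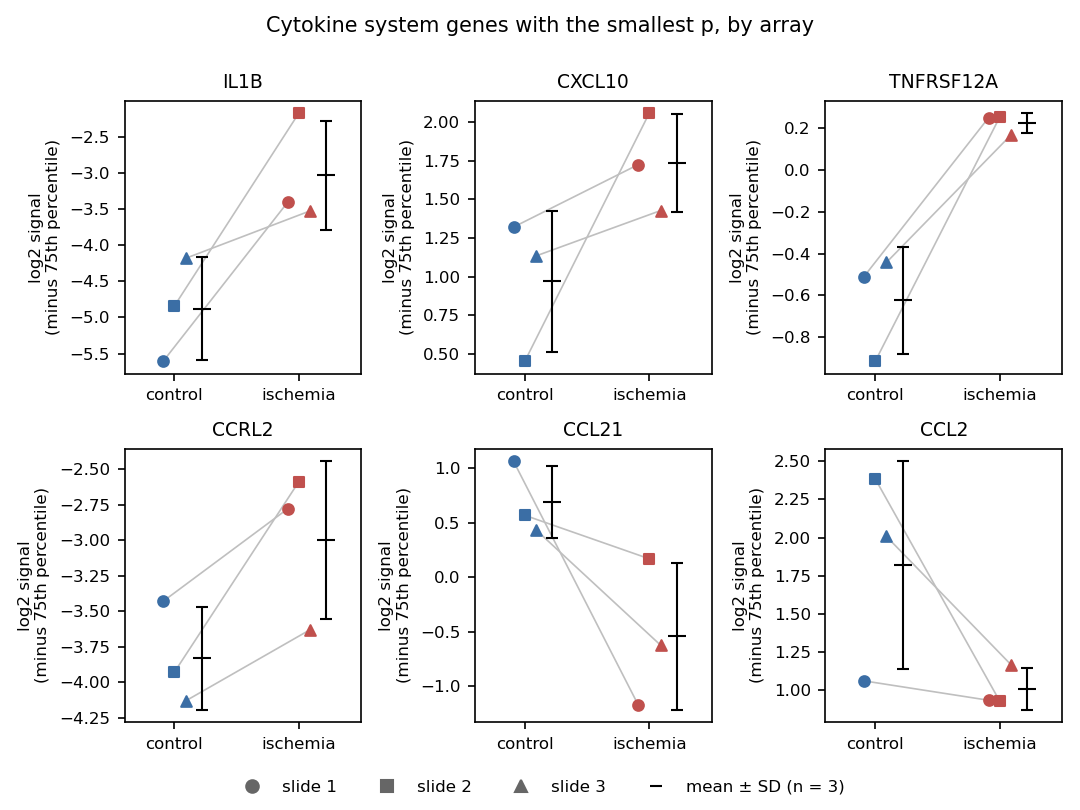
Log2 signal relative to the array's 75th percentile in each kidney for the 6 genes of smallest limma p. Blue points are controls, red points ischemia kidneys, grey lines join arrays of one slide, and bars give the mean ± SD of 3 kidneys. IL1B, CXCL10, TNFRSF12A and CCL21 show no overlap between groups, while CCRL2 and CCL2 overlap through 1 kidney of a group.

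The CC chemokines had 8 of 11 differences below 0 and a median of -0.18, where 13946 of all 25013 probes lay below 0. This balance moved with the scaling, as did that of all probes. With median centring 6 of 11 lay below 0, against 9053 of 25013, and with quantile normalization 6 of 11, against 12341. In the authors' deposited values it was 3 of 10, against 5232 of 19241. CCL21, made by lymphatic endothelium to guide CCR7-bearing cells, had the largest difference downward among members. It read 1.06, 0.57 and 0.43 in the controls and -0.62, -1.17 and 0.17 in the ischemia kidneys. All controls lay above all ischemia kidneys, with ischemia 3 nearest to them. The log2 difference was -1.23 ± 0.37 (SE; 95% interval -2.09 to -0.37; limma adjusted p = 0.659), a signal 2.35-fold lower, and -2.24, -0.40 and -1.06 within slides 1, 2 and 3. CCL19, the other ligand of CCR7 and the next gene in RefSeq order, read 1.19, 0.23 and 1.25 in the controls and 1.56, 2.25 and -0.34 in the ischemia kidneys. Its difference was 0.27 ± 0.65, with ischemia 1 and 2 above every control and ischemia 3 below every control. CCR7 itself, the receptor of both, was dim: it was above background on 1 control and 2 ischemia arrays, and its difference of 0.68 ± 0.79 has a wide error.

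CCL2 is the main attractant of monocytes that carry CCR2. Its brighter probe read 1.06, 2.39 and 2.01 in the controls and 1.17, 0.93 and 0.93 in the ischemia kidneys. Controls 2 and 3 stood above all ischemia kidneys, and control 1 lay among them. The log2 difference was -0.81 ± 0.34 (limma unadjusted p = 0.0504, adjusted p = 0.795), and the second probe gave -0.71 ± 0.27 (limma unadjusted p = 0.0328, adjusted p = 0.751). Within slides the brighter probe differed by -0.13, -1.46 and -0.84. CCL8, which binds the same receptor and lies close to CCL2 in the gene order, read -1.96, -0.80 and -1.16 in the controls and -2.38, -2.30 and -0.93 in the ischemia kidneys, a difference of -0.56 ± 0.47. A second probe, described as CCL8 in the files but carrying a transcript number as its name, read -1.86, -1.24 and -0.72 against -3.33, -3.86 and -1.86. Its groups only just did not overlap, since control 1 and ischemia 3 were equal to 2 decimals, and its difference was -1.75 ± 0.54 (limma unadjusted p = 0.0134, adjusted p = 0.659). On both CCL8 probes ischemia 3 was the highest of the ischemia kidneys.

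The other CC chemokines differed less than their error allows to separate. CCL5, a product of T cells and injured epithelium, differed by 0.37 ± 0.27 and 0.37 ± 0.33 on its 2 probes, and in both ischemia 2 and 3 were above every control. CCL3L1 and CCL4, macrophage products that lie beside each other in the gene order, differed by -0.28 ± 0.25 and -0.25 ± 0.34. The mucosal chemokines CCL25 and CCL28 differed by -0.18 ± 0.24 and 0.09 ± 0.24, and CCL27 by -0.11 ± 0.22. CCL20, the ligand of CCR6, was above background on 4 arrays, 2 in each group, and differed by -0.02 ± 0.31.

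Of the TNF superfamily ligands, none differed at an unadjusted p under 0.05. TNFSF12, or TWEAK, a ligand that many kidney cells make, had a high signal: 5.41, 5.17 and 4.89 in the controls and 5.35, 4.93 and 4.94 in the ischemia kidneys, a difference of -0.08 ± 0.23 (95% interval -0.62 to 0.46). TNF itself read -0.27, -0.07 and 0.27 in the controls and 0.31, -0.50 and -0.13 in the ischemia kidneys, and its difference was -0.08 ± 0.27. Their intervals leave differences of up to 0.46 and 0.55 upward unresolved. TNFSF10, the death ligand TRAIL, read 0.67, 0.54 and 0.30 in the controls and 0.89, 0.65 and 1.61 in the ischemia kidneys, a difference of 0.55 ± 0.29. Ischemia 3 was the highest on this probe and on the second one, which gave 0.32 ± 0.32. TNFSF13B, the B-cell factor BAFF, had differences of opposite sign on its 2 probes, 0.18 ± 0.22 and -0.18 ± 0.30. CSF3, the growth factor of granulocytes, differed by -0.50 ± 0.32, with ischemia 1 the lowest at -2.48 and the other 5 kidneys between -1.52 and -1.09.

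On the receptor side, TNFRSF12A had the smallest p of all members. It encodes Fn14, the receptor of TWEAK, known as a gene that injured and growing cells induce. Its brighter probe read -0.51, -0.92 and -0.44 in the controls and 0.17, 0.25 and 0.25 in the ischemia kidneys. The groups were well apart, and the ischemia kidneys were close to one another. The log2 difference was 0.85 ± 0.21 (SE; 95% interval 0.36 to 1.33; 1.80-fold; limma unadjusted p = 0.00413, adjusted p = 0.545), and 0.76, 1.17 and 0.61 within slides 1, 2 and 3. The second TNFRSF12A probe was dim, above background on 1 control and 3 ischemia arrays, and gave -0.01 ± 0.37. The mean of both probes differed by 0.42 (limma unadjusted p = 0.153). The 2 receptors of TNF did not separate the groups: TNFRSF1A, of nearly all cells, differed by 0.01 ± 0.32, 0.13 ± 0.21 and -0.04 ± 0.27 on 3 probes, and TNFRSF1B, of leukocytes and endothelium, by 0.04 ± 0.47 and 0.07 ± 0.22.

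Among chemokine receptors, CCRL2 had the largest difference. It is an atypical receptor that binds chemerin without classical signalling. It read -3.43, -3.93 and -4.13 in the controls and -3.63, -2.78 and -2.59 in the ischemia kidneys. Ischemia 2 and 3 were above every control, and ischemia 1 lay among the controls. The log2 difference was 0.83 ± 0.33 (SE; limma unadjusted p = 0.0398, adjusted p = 0.767), and 0.65, 1.34 and 0.50 within slides. With normexp background correction it was 0.05, and leaving out control 2, control 3, ischemia 2 or ischemia 3 brought its unadjusted p above 0.05. CCR2, CCR1 and CXCR6, which lie in the same cluster in RefSeq order, differed by -0.27 ± 0.22, -0.03 ± 0.38 and -0.05 ± 0.40, so these genes and CCRL2 did not differ as one. CCR10, the receptor of CCL27 and CCL28, differed by 0.57 ± 0.37, with ischemia 1 at -1.37 above all other kidneys. CXCR4, the receptor of CXCL12, differed by 0.27 ± 0.31, 0.19 ± 0.34 and 0.26 ± 0.33 on 3 probes, and CCRL1, the scavenger ACKR4 in RefSeq, by 0.25 ± 0.43.

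Interleukin receptors showed no difference at an unadjusted p under 0.05 in the values used here. IL4R, the receptor chain for IL4 and IL13, read 3.57, 3.31 and 3.85 in the controls and 3.57, 3.63 and 3.31 in the ischemia kidneys, a difference of -0.07 ± 0.22. IL6ST, the signal-passing chain gp130 of the IL6 family, differed by 0.23 ± 0.23 and 0.24 ± 0.20 on its 2 probes. IL6R, which binds IL6 itself, read -2.09, -3.50 and -3.57 in the controls and -3.58, -3.80 and -3.42 in the ischemia kidneys, a difference of -0.55 ± 0.41, with control 1 above the other 5 kidneys. In the authors' deposited values the IL6R difference was 0.42, of the opposite sign and with an unadjusted limma p of 0.0293 (adjusted p = 0.327). IL10RB, IL13RA1 and IL1RAPL2 differed by 0.09 ± 0.18, -0.26 ± 0.34 and 0.19 ± 0.29.

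For some axes the differences of ligand and receptor are set beside each other. No member passed the adjusted threshold, so these values cannot show whether both sides of an axis differed. TNFRSF12A differed by 0.85 on its brighter probe and -0.01 on its second, and its ligand TNFSF12 by -0.08. CCL2 differed by -0.81 and its receptor CCR2 by -0.27. CXCL12 and CXCR4 differed by -0.19 and 0.27. Of the genes in the ligand-receptor pairs chosen for description, 12, among them IL1R1, IL18R1 and CSF1R, were not among the 77 names. IL18R1 has probes under another name, which were above background on 0 arrays.

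The 18 genes with more than 1 tested probe show how probes of one gene compare. The 2 probes of CCR1 overlap, with 28 bases in common in 1 run, and those of CXCL2 with 29, so these are not separate readings. The other pairs share runs of at most 8 bases. In 12 of them the probes had the same sign, and in 6 they did not: CCR1, IL1RN, IL4R, TNFRSF12A, TNFRSF1A and TNFSF13B. In CCR1, IL4R, TNFRSF1A and TNFSF13B all differences lay within 0.19 of 0. The probes of IL1RN and TNFRSF12A lay furthest apart.

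**Figure D4:**
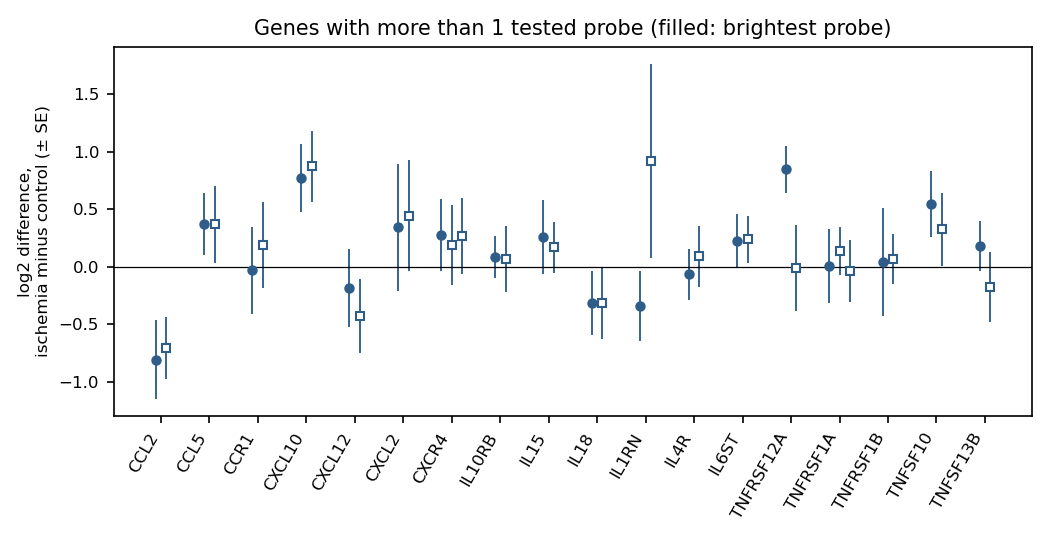
Log2 difference (ischemia minus control, with its limma standard error) of every tested probe for the 18 genes with more than 1. Filled circles are the brightest probe of a gene and open squares the others. The pairs of CXCL10 and CCL2 sit together, and those of IL1RN and TNFRSF12A lie apart.

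Probes of one gene also differed in whether they stood above background at all. The following stretches are shown because they belong to such genes or carry a feature of sequence, in capitals: ATTTA, the core of the AU-rich elements that many short-lived cytokine messages carry, in TNF and CSF3, the bases shared by both probes in IL6R, and a TG repeat in TNFRSF1A.
TNF, A_72_P211447: tttaaaaacaaatATTTAtctgatcgagtt
CSF3, A_72_P146966: ATTTAatATTTAtgcctATTTAaacctcat
IL6R, A_72_P705280: ctaatgaagatgatgAAGATATTTCCTCCA
IL6R, A_72_P035481: AAGATATTTCCTCCAAAGAGTCTGCAAATG
TNFRSF1A, A_72_P441574: gcaggtTGTGTGTGTGTGTGTGTGTGTGTG
The motif ATTTA was in 8 of 111 member probes (7.21%), against 9.33% of all probes of the array. Its reverse complement TAAAT was in 13 member probes (11.7%), against 11.2% of all probes. The TNF and CSF3 probes shown were above background on all 6 arrays, and start at bases 1507 and 753 of their transcripts in the files. Another TNF probe, at base 531, and another CSF3 probe, at base 521, were above background on 0 arrays. IL10 had the same pattern, with 6 arrays for the probe at base 1246 and 0 for that at base 613. The IL6R probes overlap by 45 of 60 bases, yet A_72_P035481 was above background on 5 arrays and A_72_P705280 on 0. The brightest TNFRSF1A probe holds a TG repeat of 24 bases.

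Genes that pass cytokine signals on inside the cell were read as a list of their own. Of 43 listed kinases, adaptors and transcription factors of the JAK-STAT, MYD88 and NF-kappaB routes, 28 were tested. None had an adjusted p under 0.05, and 0 had an unadjusted limma p under 0.05, against 6.3% of all probes. In this list 20 lay above 0 (71.4%, against 44.2% of all probes) and 8 below, with a median of 0.07. With normexp background correction 18 lay above 0 and 10 below, against 9746 of all 25013 probes above 0. With median centring it was 27 and 1, against 15960 of 25013. JAK2, a kinase of many cytokine receptors, read -0.57, -0.19 and -0.14 in the controls and 0.18, 0.05 and 0.31 in the ischemia kidneys, a difference of 0.48 ± 0.21 (limma unadjusted p = 0.0514) without overlap. In this list 3 genes lay wholly above the controls (10.7%, against 5.89% of all probes). JAK1 alone lay wholly below (3.57%, against 5.02%), with a difference of -0.14 ± 0.18. The NF-kappaB kinases IKBKB and CHUK differed by 0.37 ± 0.26 and 0.36 ± 0.20, and NFKB2 by 0.33 ± 0.23. NFKBIA, the inhibitor that NF-kappaB itself induces, differed by 0.20 ± 0.34. SOCS3, the feedback inhibitor of STAT3, differed by -0.36 ± 0.29, and CASP1, which matures interleukin 1 beta, by 0.37 ± 0.30.

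Cytokine system genes listed under other names gave 14 tested genes of 45, of which ACKR4 is the probe already counted as CCRL1. The median was -0.01, with 7 above 0 (50%, against 44.2% of all probes) and 7 below. ACKR1, the chemokine-binding Duffy receptor of venular endothelium, read -4.14, -3.99 and -3.88 in the controls and -3.44, -3.42 and -3.43 in the ischemia kidneys. The groups did not overlap, with a difference of 0.58 ± 0.18 (limma unadjusted p = 0.0148, adjusted p = 0.662), though the probe was dim. IFNGR2, IFNAR2 and OSM differed by -0.27 ± 0.20, -0.25 ± 0.22 and -0.27 ± 0.25. Of the 14 genes, ACKR1 alone lay wholly above the controls and IFNGR2 alone wholly below (7.14% each, against 5.89% and 5.02% of all probes). In the files 67 probes, ACKR1 and others of the list above among them, are described as members of these families but carry other names. Of these 29 were tested, 27 were above background on 0 arrays, 0 passed the adjusted threshold and 4 (13.8%, against 6.3% of all probes) had an unadjusted limma p under 0.05: the CCL8 probe above, ACKR1, a CXCL14 probe (0.66 ± 0.22) and a probe described as similar to CCL5 (-0.65 ± 0.28). CXCL14 is a chemokine of epithelia, and its values of -0.59, -0.35 and -0.24 in the controls lay below -0.02, 0.32 and 0.50 in the ischemia kidneys. Among the 29 probes tested, 3 lay wholly above the controls and 3 wholly below (10.3% each, against 5.89% and 5.02% of all probes).

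Markers of other cell types moved beside some of these members, and their part in the results was not tested. Of 7 macrophage markers, 4 were tested: CD163 differed by 1.42 ± 0.32 and VSIG4 by 1.14 ± 0.21, both without overlap, AIF1 by 0.33 ± 0.26 and CD14 by -0.42 ± 0.26. Their summed level was 8.92 to 9.44 in the controls and 11.6 to 16.9 in the ischemia kidneys. CD163 read 2.41 in ischemia 1 and 1.18 in ischemia 3. Of the ischemia kidneys, CD163 and CD14 were highest in ischemia 1, VSIG4 and AIF1 in ischemia 2, and IL1B in ischemia 3. The 6 of 7 T-cell markers tested summed to 3.67 to 3.82 in the controls and 1.55 to 2.39 in the ischemia kidneys. That sum followed CD247, which differed by -1.33 ± 0.23, while CD3D, CD3E and CD3G differed by 0.52, -0.03 and 0.13. The pan-leukocyte markers CD53 and LCP1 differed by 0.45 ± 0.31 and -0.04 ± 0.29. The B-cell marker CD79A did not reach the criterion for testing. Of the endothelial markers, TEK differed by 0.78 ± 0.29 and CDH5, PECAM1 and VWF by 0.20, 0.09 and -0.03. CD68, CSF1R and MARCO, further macrophage markers, were not analysed here.

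The neutrophil marker S100A12, a calcium-binding protein of granulocytes, set the ischemia kidneys apart from each other. It read -4.55, -5.95 and -3.65 in the controls, 2.30 and 2.96 in ischemia 1 and 2, and -5.18 in ischemia 3, a difference of 4.74 ± 2.01. The probe was above background on 1 control and 2 ischemia arrays, so its low values and the size of this difference are not resolved. S100A8 also had its 2 highest values, -2.95 and -2.89, in ischemia 1 and 2 and was above background on those 2 arrays only, while S100A9 was above background on 1 array of each group. The dimmer IL1RN probe, CCL19, IL7 and CCRL1 had ischemia 1 and 2 above every control and ischemia 3 below every control. In S100A12, ischemia 3 lay above control 2. These members were picked by their values, and the share of all probes with this pattern was not counted. CXCL2 and TNFSF10 had ischemia 3 as the highest kidney instead. Without ischemia 3, 8 member genes had an unadjusted limma p under 0.05 in place of 5, and the share of all probes was 7.89% in place of 6.3%: CCL19, CCL8, CCRL1, CXCL9 and IL7 joined them, and CXCL10 and CCRL2 left.

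**Figure D5:**
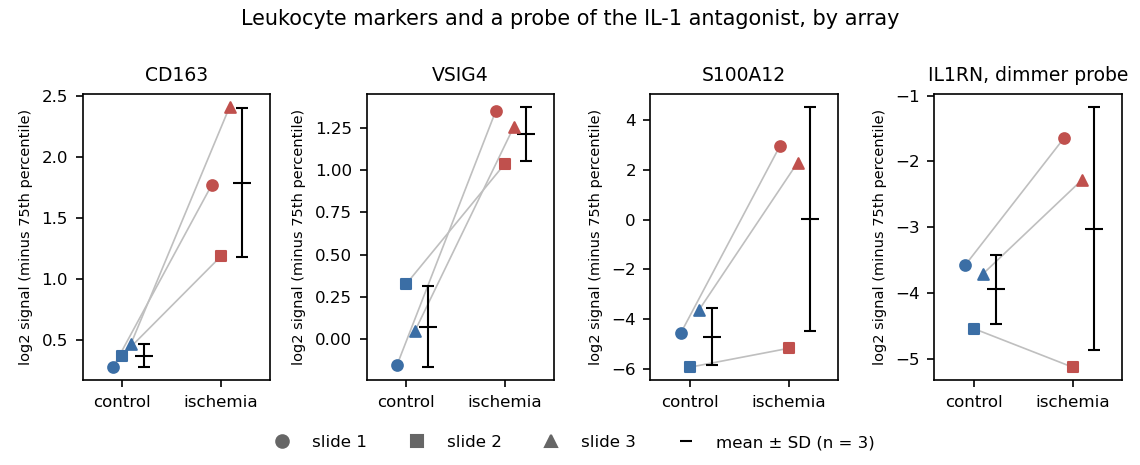
Log2 signal relative to the array's 75th percentile in each kidney for 2 macrophage markers, a neutrophil marker and the dimmer IL1RN probe. Blue points are controls, red points ischemia kidneys, grey lines join arrays of one slide, and bars give the mean ± SD of 3 kidneys. S100A12 and the IL1RN probe are high in ischemia 1 and 2 and low in ischemia 3, which the square on slide 2 marks.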

How the data were processed

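Total RNA of renal cortex was labelled with Cy3, per the labels' protocols. The deposited scanner files hold spot intensity that, per the file headers, Agilent Feature Extraction background-subtracted within each array. Version 10.10.1.1 stands in the headers, while the submitters' processing notes list 11.5.1.1, limma and R 2.15.2. A table deposited by the authors holds log2 values (column medians 5.91 to 5.99) whose normalization no source used here describes, and it served as an alternative.

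From the log2 processed signal each array's 75th percentile was subtracted. Control and outlier spots were left out, and spots of a probe averaged. The 25013 probes well above background on 3 or more of 6 arrays, with a value on 5 or more, were tested in R 4.3.3 with limma 3.58.1 (two-sided eBayes test after lmFit, Benjamini-Hochberg over all of them). A gene is given by its brightest tested probe. For a probe that no array of a group showed above background, the fold of the bright group is taken against a floor. Per array, that floor is the dim probe's signal or the lowest one among probes above background, whichever is higher. Such a fold is no strict bound. The fit was tested on simulated data. The members, gene lists and tests were chosen with earlier results of these data known. The names were used as the files give them. RefSeq (Sscrofa11.1) served only for names and gene order, and IL8, IL23RA and CCRL1 are CXCL8, IL23R and ACKR4 there. The names TNFRSF4 and TNFRSF8 carry accessions that RefSeq gives to TNFSF4 and TNFSF8, so their place among receptors is uncertain. Named one by one were the members by smallest p or highest signal and both sides of ligand-receptor pairs, which took in nearly all tested genes. Values of a few items are not reported here, though the counts include them. The CCL8, CXCR3, CXCL14 and CCL5-like probes outside the name rule were chosen after their values were seen, as were S100A8, S100A9 and NFKBIA, CASP1 and OSM. The labels state different pigs for the kidneys, and arrays correlated at 0.960 to 0.983, with no duplicates. The number of arrays limits the precision. Alternatives are given with their effect in the closing section.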

Additional observations from a re-analysis of the deposited data

How the results depend on the processing

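The count of member genes past the adjusted threshold was 0 with limma in all 17 alternatives that could be run, with the smallest adjusted p between 0.163 (deposited values) and 0.9996 (without control 2). Array weights did not converge and are not reported. The count over all probes, 1 as reported, was 11 with median centring, 3 with normexp background, deposited values, a filter on all 6 arrays or a variance trend, 0 with quantile normalization, no filter or slide as a block, and 0 to 1 with 1 array left out. Member genes at an unadjusted p under 0.05, 5 as reported, were 8 in the deposited values and 3 to 8 with 1 array left out. The 3 came without control 2 and the 8 without ischemia 3. The share of all probes at that p moved too, from 6.3% to 13.7% in the deposited values, 3.19% without control 2 and 7.89% without ischemia 3. The ligand median of -0.05 was 0.10 with median centring, 0.10 with quantile normalization and 0.12 in the deposited values. IL1B, CXCL10, TNFRSF12A, CCRL2 and CCL21 kept their sign in every alternative that measured them, and IL1B was not measured with the filter on all 6 arrays. These genes were chosen by their p in the same arrays, so the kept sign is no separate support. IL1B, CXCL10, TNFRSF12A and CCL21 had no overlap between groups, so leaving out 1 array could not change their sign. Over all alternatives the difference ranged from 0.37 to 2.19 for IL1B, 0.51 to 1.00 for CXCL10, 0.42 to 1.00 for TNFRSF12A, 0.05 to 1.15 for CCRL2 and -1.59 to -0.88 for CCL21. IL1B and CCRL2 are dim, and signal over background limits both.

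Sample numbers of the labels did not pair the kidneys: deviations of same-numbered samples correlated at -0.35, -0.17 and -0.05. With the number as a replicate block, 3 member genes had an unadjusted p under 0.05 (all probes: 4.86%), and 0 probes of the array passed the adjusted threshold. Arrays of one slide correlated at 0.34, 0.10 and 0.33, and with slide as a block CCL2 joined the genes at an unadjusted p under 0.05 (p = 0.0323, limma), which made 6 (all probes: 9.26%).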
